A study of Mus musculus with 13 samples.

Results

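Accessible chromatin around 56 genes of the Wnt pathway was examined by ATAC-seq, which maps open DNA by the insertion of the transposase Tn5, in mouse embryos at E12.5. The genes were 19 Wnt ligands, 14 receptors and co-receptors, 9 secreted inhibitors, 9 genes of the R-spondin axis, and 5 genes that act in the nucleus or are direct targets of the pathway. A region was counted when its strongest summit lay within 50 kb of the body of one of these genes, and it was given to the nearest of them. In this way 8058 of 1360329 called regions of 13 libraries were obtained, and 633 of 110782 consensus regions after the 50000 strongest regions of each of 12 libraries had been joined.

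Forebrain (FB) and the distal (DFL) and proximal (PFL) parts of the forelimb were taken from wild-type (wt) embryos and of embryos homozygous for the II1TDOM 542 allele, all of the B6CBAF1 strain. Allele 542 comes from 1 founder line, in which a transgene with the limb enhancer II1, an HBB promoter and LacZ stands in T-DOM, the regulatory domain on the telomeric side of the HoxD cluster, while the native II1 is kept. No treatment was given. Each of the 6 groups of genotype and tissue had 2 libraries, each from a separate pool of embryos, and an earlier wt DFL library was kept apart from them. Reads of 542 were mapped on a genome with the insertion and those of wt on mm10, so genotype and mapping genome cannot be told apart.

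Wnt ligands are secreted lipid-modified glycoproteins that bind Frizzled receptors together with Lrp5 or Lrp6 and so stabilise beta-catenin, which then activates genes with the TCF/LEF factors. Other ligands, with Wnt5a as the standard example, act through Ror receptors without beta-catenin and orient cells during limb outgrowth. R-spondins bind Lgr4, Lgr5 or Lgr6 and relieve the receptor turnover driven by Znrf3 and Rnf43, whereas Sfrp, Dkk and Wif1 proteins block ligands or co-receptors. In the limb bud the pathway maintains the apical ectodermal ridge and dorsal identity, and in the forebrain it shapes the dorsal midline and the cortex.

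The 12 libraries held an estimated 37.5 to 70.7 M tags and 85067 to 118297 regions. The 542 libraries, at 37.5 to 64.5 M tags, lay on the whole lower than the wt libraries, at 44.0 to 70.7 M. Regions near 4 limb mesenchyme markers numbered 13 to 18 in DFL, 12 to 16 in PFL and 5 to 6 in FB, and those near 5 forebrain markers numbered 15 to 20, 13 to 15 and 28 to 32. For each list, counts were summed over its genes, so a region near 2 of them was counted for each. Summed counts for distal limb (Hoxa13, Hoxd12 and Hoxd13) were 26 to 32 in DFL, 21 to 25 in PFL and 7 to 15 in FB. Hoxd12 and Hoxd13 are neighbours and share most of their regions, so these sums exceed the number of separate regions. The list for proximal limb (Meis1, Meis2 and Shox2) had 20 to 25 in PFL but 30 to 37 in FB, so this list does not set PFL apart. Muscle markers had 13 to 17 regions in PFL against 9 to 10 in DFL, blood markers 13 to 19 in FB against 9 to 11 in limb, and ectoderm and endothelium markers 7 to 16 in any library, while the ectoderm marker Krt5 had 0 regions in all 12. Their part in the results below was not tested. In bulk tissue, fewer accessible cells and less accessibility per cell cannot be told apart.

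To show the DNA behind the tissue classes defined below, the sequence under the region with the highest mean fold of each class is given: near Dkk3 for DFL-only (chr7:112192304-112192603), near Ror1 for PFL-only (chr4:100462494-100462793), in Frzb for FB-only (chr2:80438958-80439257) and near Fzd4 for limb-only (chr7:89380998-89381297). All 4 were also called, at lower rank, in 2 or 3 libraries outside their class. Each is 300 bases of GRCm38 (mm10) around the strongest summit on the plus strand, and capitals mark a match to 1 of 4 motifs searched on both strands. The motifs were CTTTGAT of TCF/LEF, CAATAAA and TCGTAAA of HOX13 factors, and TAATTA of homeodomain factors.
Dkk3, DFL-only: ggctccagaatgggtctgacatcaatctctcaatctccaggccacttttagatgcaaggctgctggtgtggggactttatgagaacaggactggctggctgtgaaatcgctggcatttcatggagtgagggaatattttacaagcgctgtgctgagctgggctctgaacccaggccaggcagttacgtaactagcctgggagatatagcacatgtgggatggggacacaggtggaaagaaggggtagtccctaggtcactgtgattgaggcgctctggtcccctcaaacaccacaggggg
Ror1, PFL-only: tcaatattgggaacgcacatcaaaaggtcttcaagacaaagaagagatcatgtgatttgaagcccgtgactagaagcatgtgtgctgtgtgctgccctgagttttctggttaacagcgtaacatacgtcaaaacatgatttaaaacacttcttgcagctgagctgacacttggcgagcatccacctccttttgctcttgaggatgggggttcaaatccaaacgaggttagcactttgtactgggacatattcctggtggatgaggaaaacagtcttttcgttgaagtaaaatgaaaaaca
Frzb, FB-only: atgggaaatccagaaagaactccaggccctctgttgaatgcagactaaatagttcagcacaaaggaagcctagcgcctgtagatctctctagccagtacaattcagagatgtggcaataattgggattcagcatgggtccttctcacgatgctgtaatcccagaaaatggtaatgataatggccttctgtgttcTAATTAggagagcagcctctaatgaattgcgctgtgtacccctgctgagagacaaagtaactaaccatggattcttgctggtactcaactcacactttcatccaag
Fzd4, limb-only: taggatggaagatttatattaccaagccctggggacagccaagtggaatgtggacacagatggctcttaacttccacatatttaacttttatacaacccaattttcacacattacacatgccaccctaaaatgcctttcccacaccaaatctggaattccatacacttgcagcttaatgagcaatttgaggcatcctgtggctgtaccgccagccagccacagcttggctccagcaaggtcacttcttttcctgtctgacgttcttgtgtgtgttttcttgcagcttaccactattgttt
Of the 4 windows, only that in Frzb held a match, a TAATTA starting at base 195. Over all 110782 windows of this length, 5.10% held CTTTGAT, 7.09% CAATAAA, 0.996% TCGTAAA and 13.9% TAATTA, and among the 633 near Wnt genes the shares were 5.53%, 4.74%, 0.474% and 12.0%. A TAATTA was found in 16 of 50 FB-only regions near Wnt genes (32.0%), beside 32.5% of all FB-only regions, in 4 of 16 DFL-only regions (beside 22.9%) and in 0 of 11 PFL-only regions (beside 4.65%). CTTTGAT occurred in 6 of the 50 FB-only regions (12.0%, beside 6.93% of all of that class), in 2 of the 35 limb-only (5.71%, beside 4.96%), in 1 of the 16 DFL-only (6.25%, beside 7.69%) and in 0 of the 11 PFL-only regions (beside 2.9985%). CAATAAA was found in 2 of the 16 DFL-only regions (beside 19.4%), in 2 of the 35 limb-only (5.71%, beside 11.1%), in 2 of the 50 FB-only (beside 5.22%) and in 0 of the 11 PFL-only regions (beside 7.05%). These are counts of letters and not of bound sites.

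Most promoters of the Wnt genes had a region in every library. A region overlapped the 500 bp on either side of an annotated transcript start in all 12 libraries for 44 of 56 genes (78.6%, beside 61.4% of 21911 protein-coding gene symbols). Among the 50000 strongest regions this held for 36 (64.3%, beside 56.4%), of which 4 were ligands. With all deposited regions the 44 were all 14 receptors, all 5 nuclear and target genes, 8 of 9 secreted inhibitors, 7 of 9 genes of the R-spondin axis and only 10 of 19 ligands. Among the receptors the fold over local background, the ratio of tags at a summit to the surrounding signal in the same library, lay between 14.1 and 17.7 at Fzd4 and between 14.8 and 17.96 at Lrp6, the co-receptor of canonical signalling. At Znrf3, the ubiquitin ligase that removes Frizzled from the membrane, it lay between 13.7 and 17.7, and at Lgr4 between 14.7 and 17.9. DFL, PFL and FB values overlapped at each of these 4 promoters.

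Ligand promoters were weaker and more often missing. At Wnt5a the fold was 3.47, 3.33, 3.35 and 3.65 in DFL, 2.96, 3.29, 3.30 and 3.32 in PFL, as against 3.15, 3.24, 3.51 and 3.42 in FB (wt replicates 1 and 2, then 542 replicates 1 and 2, as throughout). DFL thus lay just above PFL and overlapped FB, and the promoter was among the 50000 strongest regions in every DFL but no FB library. Wnt1, a ligand of the dorsal midline, had a promoter region in every FB library, at 3.85, 2.98, 2.79 and 2.92, in no DFL library of the groups, in 2 PFL libraries, at 4.83 and 3.20, and in the earlier wt DFL library, at 3.53. Wnt8a had no promoter region in any library. Wnt8b was called only in FB among the 12, at 3.04, 4.18 and 3.08 in 3 of 4 libraries. Wnt3a was called only in PFL, at 3.04 and 3.47 in both wt libraries.

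At a few promoters a region was called in every library, but the fold there was unequal. Where several regions touched the promoter window, the highest fold was taken. Frzb encodes a secreted Frizzled-related inhibitor of cartilage. The highest fold at its promoter was 13.3, 14.2, 14.2 and 13.5 in FB against 5.47 to 6.68 in DFL and 5.54 to 7.52 in PFL. The FB values came from an intronic region 478 bp from the start. That region was called at 2.48 to 4.22 in 3 DFL libraries and not in PFL, so the limb values came from another region. Wif1, which binds Wnt ligands directly, stood at 13.9 to 15.4 in FB against 8.28 to 9.31 in DFL and 8.71 to 11.1 in PFL. In both genes the lowest FB library lay above the highest limb library. Fzd5, a receptor of the eye and forebrain, had the opposite order, at 10.2 to 12.6 in FB and 13.01 to 16.1 in the limb. Fzd8 likewise had 5.05 to 6.45 in FB and 7.55 to 9.09 in the limb. The choice of these 4 genes was made with their values in view.

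**Figure D1:**
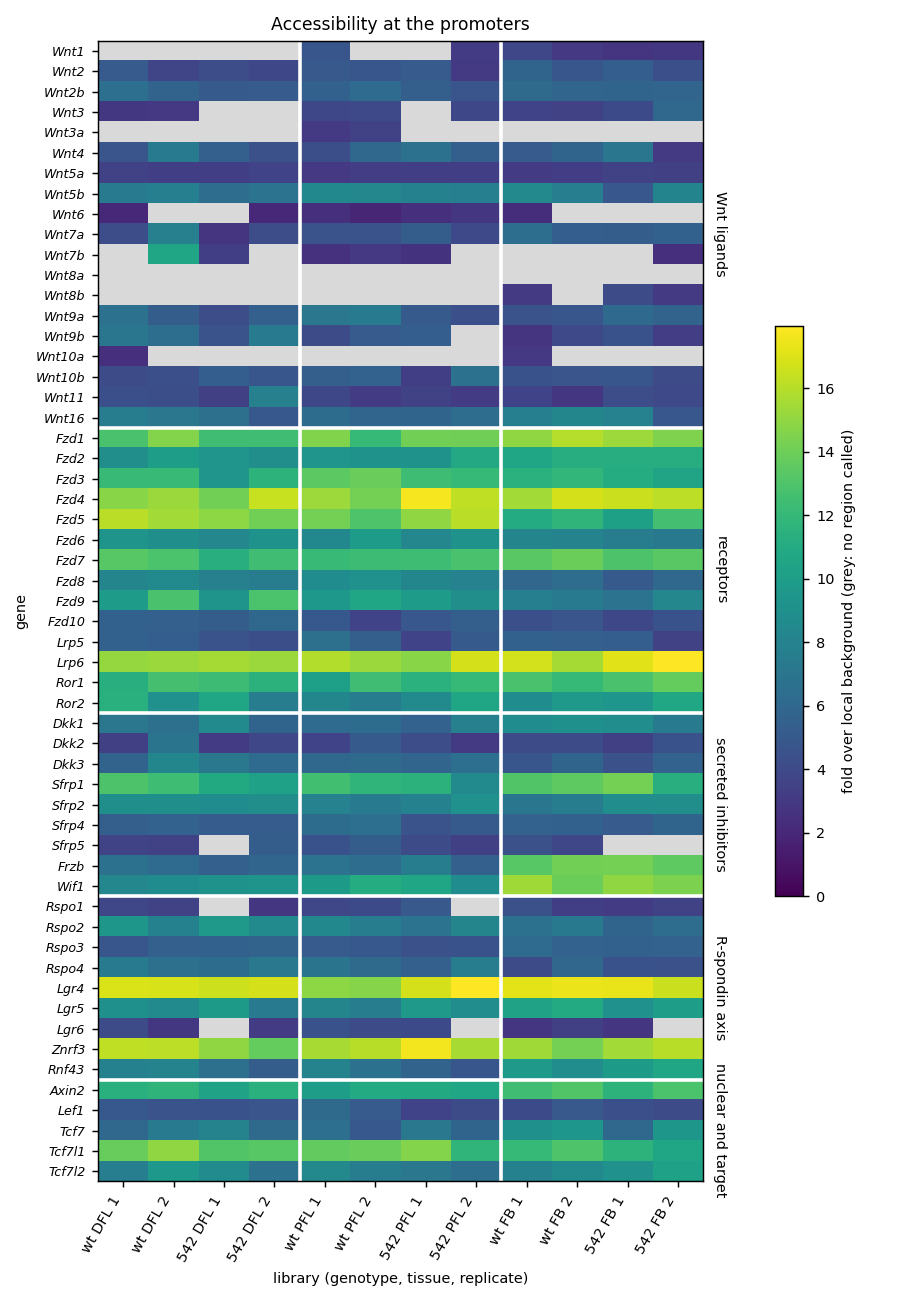
Highest fold over local background at the promoter of each of the 56 genes (rows, by role). Columns are the 12 libraries, by tissue and genotype, with grey where no region was called. For Frzb the FB and limb values come from different regions. Receptors have a region in every library, whereas grey cells gather among the ligands, and Frzb and Wif1 are brighter in FB than in the limb.

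Regions were next counted over the whole surroundings of each gene, promoters included. The number of regions per gene among the 50000 strongest had a median of 5.0 over genes and libraries, against 4.0 for all 21938 protein-coding genes, and the Wnt genes took 295 to 335 of the 50000 regions of a library (0.59% to 0.67%). With all deposited regions they took 594 to 714 in PFL and DFL apart from 1 library with 513 (542 PFL replicate 2, the one with the fewest regions in all) and 502 to 576 in FB. Among the 50000 strongest regions, receptors had 88 to 104 in limb libraries and 66 to 74 in FB, secreted inhibitors 40 to 53 and 39 to 44, and ligands 61 to 76 in the limb and 77 to 89 in FB. The receptor difference was uneven over genes. Means in DFL, PFL and FB were 10.25, 19.25 and 2.75 for Ror1, 16.25, 14.75 and 10.25 for Ror2, and 7.75, 8.5 and 3.75 for Fzd4. The means of Fzd1, Fzd3, Fzd5 and Fzd8 were instead highest in FB. With all deposited regions receptors still had more in the limb, at 155 to 219 against 120 to 139, whereas ligands overlapped, at 110 to 161 in the limb and 132 to 158 in FB.

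**Figure D2:**
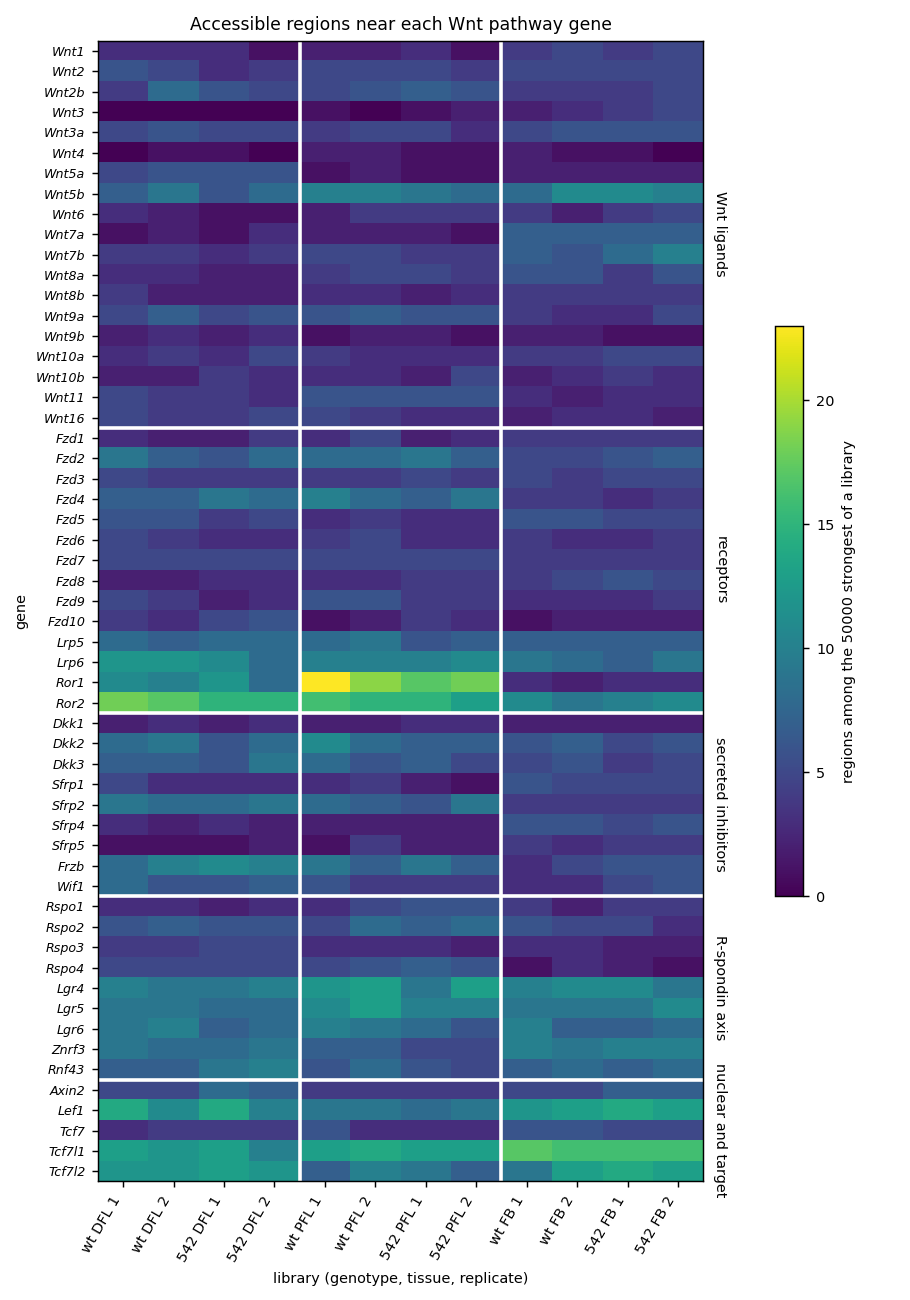
Number of accessible regions within 50 kb of each of the 56 genes (rows, by role) among the 50000 strongest regions of each of 12 libraries (columns). Ror1 is brightest in PFL, with 17 to 23 regions, and falls to 2 to 3 in FB, while Wnt5a is brighter in DFL and Wnt7a in FB.

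The ligand Wnt5a, needed for outgrowth of the limb along its long axis, had 5, 6, 6 and 6 regions in DFL and 1, 2, 1 and 1 in PFL, with 2 in each FB library. Every DFL library lay above every other, and the earlier wt DFL library had 5. With all deposited regions DFL, at 9 to 12, and PFL, at 9 to 10, overlapped, while FB had 4 to 8. One region, 30821 bp from the start of Wnt5a between genes (chr14:28541836-28542800), had folds of 9.46, 9.14, 9.15 and 13.2 in DFL and 3.06, 3.02, 3.17 and 4.59 in PFL and was not called in FB. It was chosen after its values were seen. Another region given to Wnt5a lay 29609 bp from its start in an intron of the neighbouring gene Erc2, was called in all 4 FB libraries, with a mean fold of 6.94, and in no limb library of the groups, and was likewise chosen after its values were seen.

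Wnt7a, the dorsal ectodermal ligand that is also expressed in the forebrain, had 7 regions in each FB library, 1, 2, 1 and 3 in DFL, and 2, 2, 2 and 1 in PFL. Wnt7b had 7, 6, 8 and 10 in FB and 3 to 5 in the limb. Neither gene had an FB library that overlapped the limb. With all deposited regions Wnt7a did overlap, at 8 to 11 in FB and 4 to 9 in DFL. Wnt3, which acts in the ridge ectoderm, had 0 regions in all 4 DFL libraries, 1, 0, 1 and 2 in PFL and 2, 3, 4 and 5 in FB. Wnt11 had 6 in each PFL library, 3 to 5 in DFL and 2 to 3 in FB. With all deposited regions its limb segments overlapped, at 9 to 19 in PFL and 12 to 17 in DFL, with 6 to 8 in FB.

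Ror1, a tyrosine kinase receptor for Wnt5a whose body spans 349 kb of chromosome 4, varied most in number. It had 23, 19, 17 and 18 regions in PFL, 11, 10, 12 and 8 in DFL, and 3, 2, 3 and 3 in FB, so the 3 tissues did not overlap. With all deposited regions PFL, at 33 to 47, and DFL, at 22 to 38, overlapped, while FB had 9 to 11. The related receptor Ror2 had 18, 17, 15 and 15 in DFL and, in PFL, 16, 15, 15 and 13, with 11, 9, 10 and 11 in FB. Fzd4 had 7 to 9 in DFL, 7 to 10 in PFL and 3 to 4 in FB. For Ror2 and Fzd4 the limb segments overlapped and both lay above FB.

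Among the modulators, Frzb had 8, 10, 11 and 10 regions in DFL and 9, 7, 9 and 7 in PFL but 3, 5, 6 and 6 in FB. Sfrp2, a secreted inhibitor of the limb mesenchyme, had 8 or 9 in DFL, 6 to 9 in PFL and 4 in each FB library. Both lay higher in the limb than in FB. Rspo4 had 5 in each DFL library, 5 to 7 in PFL and 1 to 3 in FB, and the receptor Lgr5, a marker of Wnt-responsive stem cells, had 8 to 9 in DFL, 10 to 13 in PFL and 9 to 11 in FB. For Rspo1 the means of 5.00 in PFL and 2.75 in DFL differed by 2.25 regions, but single libraries touched at 3. With all deposited regions the Rspo1 mean was 7.75 in both limb segments. Lgr5 then had 17 to 24 in DFL, 18 to 22 in PFL and 13 to 16 in FB, so its limb segments overlapped. Rspo4 had 7 to 10 in DFL and 10 to 13 in PFL, and DFL overlapped FB, at 6 to 8. Frzb and Sfrp2 stayed higher in the limb than in FB.

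Tcf7l2 and Lef1, which carry beta-catenin to DNA, had more regions in DFL than in PFL. Tcf7l2 had 12, 12, 13 and 12 in DFL but 7, 10, 9 and 7 in PFL, while FB had 9, 13, 14 and 13. Lef1 had 10 to 14 in DFL, 8 to 9 in PFL and 12 to 14 in FB, and Axin2, the feedback inhibitor used as a readout of canonical signalling, had 5 to 8, 4 in each and 5 to 7. PFL lay below DFL for all 3 genes and below FB for Lef1 and Axin2, whereas it met FB at 9 to 10 regions for Tcf7l2. With all deposited regions Tcf7l2 had 21 to 26 in DFL and 21 to 36 in PFL, so the higher mean, 28.0 against 23.75, was that of PFL. The limb segments then met at 24 for Lef1 and overlapped for Axin2, at 8 to 11 in DFL and 6 to 11 in PFL. Tcf7l1, mostly a repressor, had 16 to 17 in FB against 10 to 14 in the limb. With all deposited regions FB was not higher for Tcf7l1, at 24 to 26 against 26 to 29 in DFL and 26 to 32 in PFL.

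Counted over all members, 6 genes had more regions in every DFL than in every PFL library (Wnt5a, Rspo3, Znrf3, Axin2, Lef1 and Tcf7l2), where 2.52% of all protein-coding genes did so, and 4 had the reverse (Wnt8a, Wnt11, Ror1 and Lgr5), where 2.58% did. Against FB, 11 genes stood higher in DFL (9.18% of all genes) and 10 in PFL (9.57%), while FB stood higher than DFL for 10 (10.1%) and higher than PFL for 11 (10.3%). Among the 19772 genes with a region in any library, a background added after seeing the data, the same shares of all genes were 2.8% to 2.87% between the limb segments and 10.2% to 11.4% against FB. Without wt PFL replicate 1, the 4 genes higher in PFL than DFL became 7. The shares of the 56 genes against FB were thus between 17.9% and 19.6%. They were not counted alike, since a Wnt gene took only regions nearest to it among the members. Each of all genes took every region within 50 kb. The Wnt genes also had more regions, with a median of 5.0 against 4.0, and the part of both in these shares was not tested. The lists between the limb segments rested on the restriction to the 50000 strongest regions, since with all deposited regions 5 and 1 genes were counted and 0 of the 6 and 0 of the 4 were among them. Against FB, 8 of 11 (DFL) and 8 of 10 (PFL) genes higher in the limb were found again, and 5 of 10 and 4 of 11 higher in FB.

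Consensus regions were then sorted by the libraries that held them. A region was DFL-only, PFL-only or FB-only when it was among the 50000 strongest in all 4 libraries of that tissue and in none of the other 8, and limb-only when it was so in all 8 limb libraries and no FB library. Of the 633 regions near Wnt genes, 16 were DFL-only (2.53%, beside 1.92% of all consensus regions), 11 PFL-only (1.74%, beside 1.81%), 50 FB-only (7.90%, beside 8.77%) and 35 limb-only (5.53%, beside 4.82%). A further 117 were held by all 12 libraries (18.5%, beside 17.4%). Without 542 PFL replicate 2, the PFL-only regions numbered 18. The shares near Wnt genes thus lay close to those of all regions in each class. Near other genes of the pathway, such as intracellular components, 636 regions held 7, 5, 43 and 20 of these classes and 193 in all 12 libraries (30.3%).

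**Figure D3:**
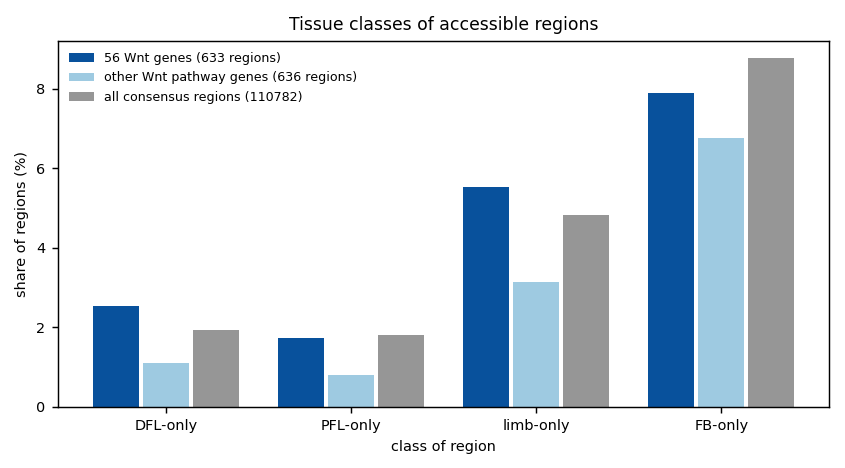
Share of regions (percent) in each class near the 56 Wnt genes, near other Wnt pathway genes and among all consensus regions. The bars of the 56 genes stand close to those of all regions, at 7.90% against 8.77% for FB-only and 5.53% against 4.82% for limb-only.

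The classes were spread over many genes. FB-only regions lay near 30 genes and were led by Tcf7l1 with 5 of its 25 regions and Wnt7a with 4 of 9. Limb-only regions lay near 23 genes, led by Fzd4 with 4 of 13. Of all consensus regions 8.77% were FB-only and 4.82% limb-only. Of the 16 DFL-only regions 6 belonged to receptors (3.33% of their 180 regions), 4 to secreted inhibitors (4.55% of 88) and 4 to nuclear and target genes (4.21% of 95). The share over all regions was 1.92%. Ror2, with 27 regions, held 3 of the DFL-only regions, and Ror1, with 33, held 3 of the 11 PFL-only regions. The 142 ligand regions held 1 DFL-only, 1 PFL-only and 11 FB-only regions. The last was a share of 7.75%, beside 8.77% of all regions. Receptors and the R-spondin axis also had 11 FB-only regions each, at 6.11% and 8.59% of their regions. Introns held 8 of 16 DFL-only, 6 of 11 PFL-only, 30 of 50 FB-only and 23 of 35 limb-only regions, but 29 of the 117 regions of all 12 libraries. Only 1 of the 112 class regions lay within 500 bp of a start of its Wnt gene, against 34 of the 117. These splits by place were not computed over all consensus regions, so they cannot be read as particular to the Wnt genes. The nearest transcript start of any gene was that of the Wnt gene itself for 11 of 16, 4 of 11, 32 of 50 and 13 of 35, so many of these regions could as well belong to a neighbour.

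Class membership speaks of rank and not of absence. At any rank, 13 of the 16 DFL-only and 10 of the 11 PFL-only regions were also called somewhere outside their tissue, as were 26 of the 50 FB-only and 13 of the 35 limb-only regions. These counts cannot be set against each other, since limb-only regions had 4 libraries outside their class and the others 8, which for DFL and PFL included the other limb segment. The earlier wt DFL library called all 16 DFL-only and all 35 limb-only regions, 10 of the 11 PFL-only and 20 of the 50 FB-only regions.

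Among secreted inhibitors, the DFL-only region near Dkk3 (chr7:112192081-112192774, between genes), a divergent member of the Dickkopf family, had folds of 9.27, 9.80, 7.47 and 10.3 in DFL from 42 to 91 tags. It was called in 1 wt and 1 542 PFL library, at 4.02 and 3.37, and not in FB. The DFL-only region near Frzb (chr2:80384216-80384867, between genes) had 8.86, 8.78, 9.24 and 8.96, a mean of 8.96 ± 0.20 (SD, n = 4), and was not called in any PFL or FB library. It was the steadiest of the DFL-only regions named here. The region near Sfrp2 (chr3:83747364-83748526) had 7.25, 7.73, 8.77 and 6.62, and was called in both wt PFL libraries, at 2.90 and 3.62, and not in FB. A DFL-only region in an intron of Rspo2 (chr15:43114685-43115373), an R-spondin of the apical ridge, had 8.06, 6.52, 8.60 and 7.65, but was also called in both wt PFL libraries, at 3.86 and 2.56, and in all 4 FB libraries, at 2.92 to 4.68.

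The 2 leading PFL-only regions were given to Ror1. The first, 17879 bp beyond the gene (chr4:100462036-100463115) and nearest to the start of Ube2u, had 9.40, 7.84, 10.2 and 7.87 in PFL and 3.85 to 4.53 in 3 DFL libraries. The second, in an intron (chr4:100393402-100394558), had 6.91, 8.96, 8.31 and 8.61 in PFL and was called in no DFL or FB library of the groups, although the earlier wt DFL library called it at 2.78. Neither was called in FB. An intronic region of Dkk2 (chr3:132102652-132103421), an antagonist of Lrp co-receptors, had 5.79, 8.11, 8.49 and 7.39 in PFL and 4.15 to 5.08 in DFL. The fourth, 21187 bp from Fzd8, had 9.81 and 7.84 in wt PFL but 5.35 and 5.19 in 542 PFL, and the earlier wt DFL library reached 8.35 there.

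The named FB-only regions had higher mean folds than the named regions of the other classes. They were the top 4 of 50, whereas the other classes held 16, 11 and 35 regions. Folds were not scaled here, and library medians over the regions called in all 12 were 9.62 to 10.4 in FB and 8.09 to 9.30 in the limb. Over each whole class the median of mean folds was 7.08 for FB-only and 7.87 for limb-only regions. The Frzb region (chr2:80438532-80439498), in an intron 478 bp from its start, had 13.3, 14.2, 14.2 and 13.5 in FB (mean 13.8 ± 0.47, SD, n = 4) from 195 to 266 tags, was called at 2.48 to 4.22 in 3 DFL libraries, and was not called in PFL. This is the region that also gave the FB value of the Frzb promoter. An intronic region of Lgr5 (chr10:115468668-115469570) had 15.03, 11.74, 13.6 and 13.4, and 1 of Tcf7l1 (chr6:72699237-72700079) 12.4, 11.6, 11.6 and 13.3, and neither was called in any limb library. The Tcf7l1 region lay 446 bp from the start of another transcript, Gm15402. In Lgr4 (chr2:109942722-109943709) the values were 10.4, 11.4, 14.0 and 12.2, with 1 wt DFL library at 2.34.

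The 4 named limb-only regions had folds of 8.63 to 14.7 in the limb libraries. Near Fzd4 (chr7:89380682-89381778, in an intron of Tmem135), DFL had 10.3, 12.6, 11.0 and 9.93 and PFL 12.8, 14.7, 9.90 and 8.79, with 2 FB libraries at 2.69 and 3.04. Near Rspo2 (chr15:43213376-43214114) the limb mean was 11.0 ± 1.53 (SD, n = 8), and in an intron of Wnt2 (chr6:18013146-18014135) it was 10.7 ± 1.14 (SD, n = 8). Neither of these was called in FB. Near Fzd2 (chr11:102595127-102596221) DFL had 8.63 to 10.8 and PFL 11.2 to 11.5, and 3 FB libraries had 2.69 to 3.85. The segments overlapped for the first 3 regions and not for Fzd2.

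**Figure D4:**
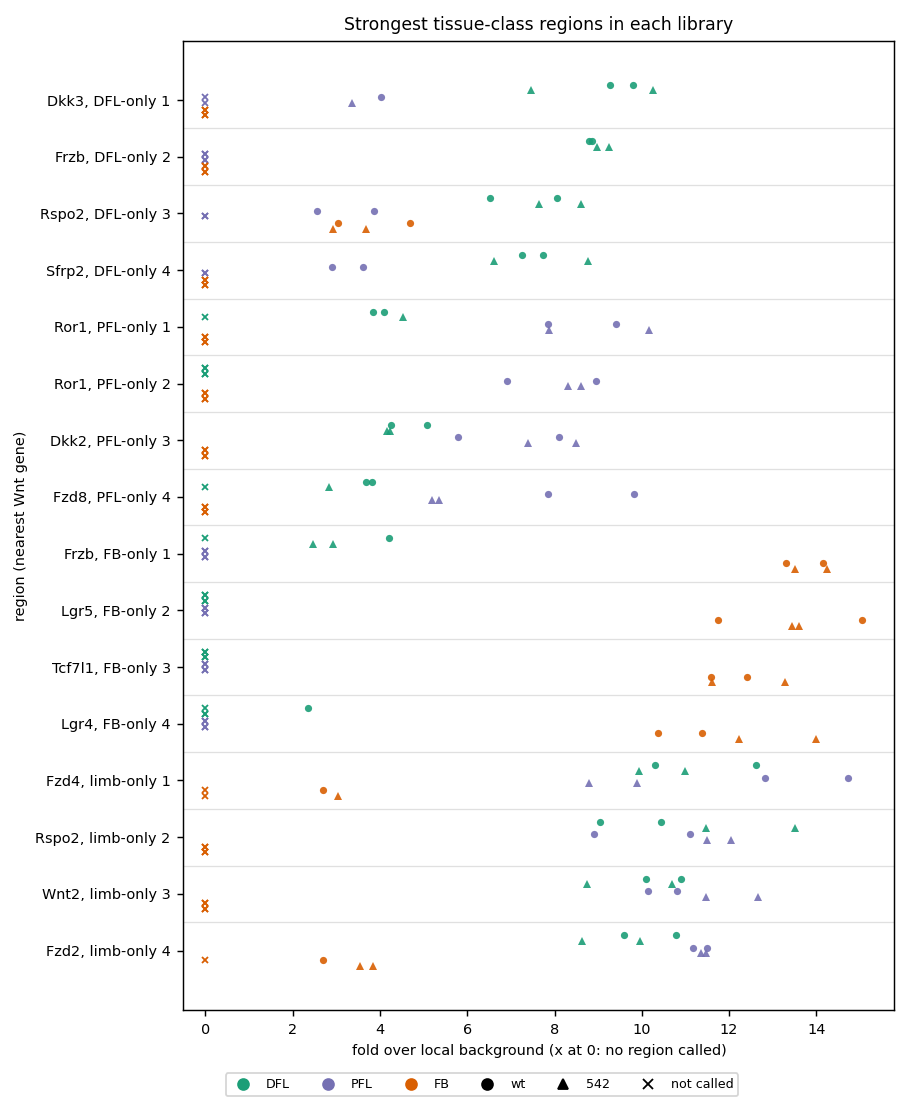
Fold over local background (horizontal axis) of the 4 strongest regions of each class in each of 12 libraries, by tissue (colour) and genotype (circle wt, triangle 542), with a cross at 0 where no region was called. FB-only regions reach 10.4 to 15.03 in FB, and the Lgr5 and Tcf7l1 regions show crosses for all limb libraries.

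To test strength, regions called in all 12 libraries were compared with limma on the log2 fold, with Benjamini-Hochberg adjustment over 28265 regions at a threshold of 0.05. Of the 633 Wnt regions 177 could be tested, since a region missing from any library has no fold there, and the strongest class regions above are therefore not among them. The p-values measure the spread between 2 pools per group. Between the limb segments 4 of 177 were stronger in DFL (2.26%, beside 3.62% of all regions) and 4 in PFL (2.26%, beside 2.82%). Without wt PFL replicate 2, 2 were stronger in DFL, and 2 were stronger in PFL without wt PFL replicate 1 and 1 without wt DFL replicate 2. Each library was centred on its median over the tested regions, which holds the median difference of all regions small by construction. It was -0.03 on the log2 scale for the 177 and for all regions. Without centring it was 0.03 for the 177 and for all regions.

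The largest gain in DFL lay 18240 bp from Axin2 between genes (chr11:108961393-108962190), with folds of 7.94, 10.18, 11.69 and 10.47 in DFL, 5.52, 4.80, 4.96 and 5.41 in PFL and 2.46 to 5.13 in FB. DFL and PFL did not overlap, and the log2 difference was 0.89 ± 0.21 (SE; limma adjusted p = 0.0402). This call was lost on leaving out any of the limb libraries or either wt FB library, with limma adjusted p-values between 0.0598 and 0.12. A region 4141 bp from the start of Fzd3, a receptor of axon guidance, lay 14 bp from that of Fbxo16 and had 6.16, 5.52, 6.99 and 6.34 in DFL, 3.03, 3.36, 3.70 and 4.50 in PFL and 7.24 to 8.23 in FB (0.73 ± 0.11, SE; limma adjusted p = 0.00569). A region given to Rnf43 lay in an intron of Tspoap1 and was 0.56 ± 0.09 higher in DFL (SE; limma adjusted p = 0.00992). The fourth lay near Tcf7l2.

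In the other direction, the largest difference lay 34805 bp from Fzd6 (chr15:39041771-39042787), a receptor of planar cell polarity. It had 12.0, 9.76, 11.0 and 8.84 in PFL, 5.92, 5.78, 6.64 and 5.48 in DFL, and 8.99 to 10.7 in FB. DFL lay below both other tissues, with a DFL minus PFL difference of -0.86 ± 0.09 on the log2 scale (SE; limma adjusted p = 0.00196), although the earlier wt DFL library stood at 8.00. Tcf7l1 held 2 intronic regions that were stronger in PFL, at -0.62 ± 0.13 (chr6:72677043-72678249; limma adjusted p = 0.0221) and -0.45 ± 0.08 (chr6:72647358-72648389; limma adjusted p = 0.0171). In the first, 4.62 to 6.13 in DFL stood below 6.68 to 9.67 in PFL and 9.37 to 10.7 in FB. Without wt DFL replicate 2, both lost the call, and 1 region stronger in PFL was called in all. The first was also lost in 5 other alternatives, among them 3 that left out another limb library, and with tags at the summit scaled to depth its difference was -0.29 (limma adjusted p = 0.28).

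Between forebrain and limb, 20 of 177 regions were stronger in FB (11.3%, beside 14.9% of all regions) and 40 in the limb (22.6%, beside 21.6%). This split depended on the scaling of the libraries, which were each centred on their median. Without centring, 62 were stronger in FB (35%, beside 34.5% of all regions) and 24 in the limb (13.6%, beside 13.1%). The median of all regions then moved from -0.03 to 0.14 on the log2 scale. By quantile normalization 24 were stronger in FB (13.6%, beside 17.2%) and 32 in the limb (18.1%, beside 17.4%). Receptors had 16 of the regions stronger in the limb and 5 of those stronger in FB, from 43 tested, and ligands 3 and 6 from 50. Of all regions, 21.6% were stronger in the limb and 14.9% in FB. The counts by role were taken with centring only and were not recomputed under other scalings.

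The 6 named differences below kept their direction and their call under each alternative scaling. The region 13084 bp from Fzd9 (chr5:135263946-135265036), 12 bp from the start of 9430007M09Rik, had 10.1 to 12.0 in DFL, 11.6 to 13.1 in PFL and 3.04, 2.70, 4.18 and 6.46 in FB. FB minus limb was -1.81 ± 0.11 (SE; limma adjusted p = 5.08e-06). A region given to Fzd2 lay 2 bp from the start of 2810433D01Rik and differed by -1.43 ± 0.11 (SE; limma adjusted p = 2.06e-05). Within an intron of Tcf7l1 (chr6:72655011-72656074) the limb had 11.3 to 14.5 and FB 5.47 to 7.14, a difference of -1.18 ± 0.08 (SE; limma adjusted p = 1.32e-05). Thus the intronic regions of Tcf7l1 included FB-only, PFL-stronger and limb-stronger ones side by side.

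The strongest gain in FB was in an intron of Nsf, 66956 bp from the start of Wnt3 (chr11:103840667-103842154), with 12.3, 12.0, 11.9 and 10.7 in FB and 2.98 to 4.69 in the 8 limb libraries. The difference was 1.51 ± 0.12 (SE; limma adjusted p = 2.36e-05). An intronic region of Ror2 (chr13:53153412-53155147) had 8.26, 8.09, 10.8 and 9.73 in FB and 3.69 to 5.38 in the limb, a difference of 0.83 ± 0.08 (SE; limma adjusted p = 8.87e-05). There the earlier wt DFL library stood at 8.96, among the FB values. An intronic region of Lgr4 (chr2:109959579-109960747) had 13.04 to 14.2 in FB and 5.38 to 10.0 in the limb, at 0.78 ± 0.12 (SE; limma adjusted p = 0.000988), and the earlier wt DFL library had 12.1.

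**Figure D5:**
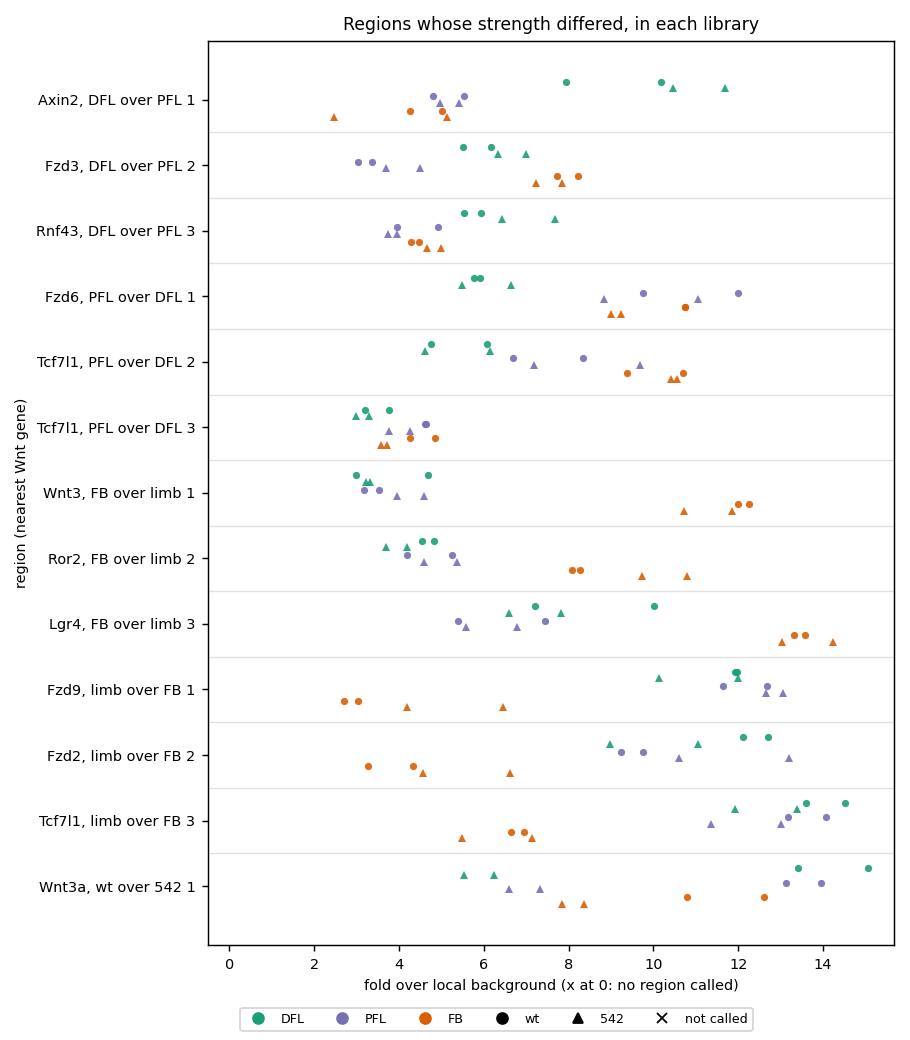
Fold over local background (horizontal axis) of the regions with the largest called differences in each of 12 libraries, by tissue (colour) and genotype (circle wt, triangle 542). Wnt3 stands at 10.7 to 12.3 in FB against 2.98 to 4.69 in the limb, and for Wnt3a all triangles lie below all circles.

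Few regions around these genes passed the adjusted threshold for genotype, and a region without a call is not thereby shown to be equal. By limma, 0 of 177 regions were stronger in 542 (beside 0.092% of all regions) and 1 was weaker (0.565%, beside 0.0991%), while 27 of the 177 had an unadjusted p under 0.05 in either direction (15.3%, beside 14.3% of all regions). For the difference of the genotype effect between tissues, limma called 0 of the 177 (beside 0.0% of all regions), with 16 at an unadjusted p under 0.05 (9.04%, beside 9.03%). The 1 weaker region had been given to Wnt3a but lay 88275 bp from its start and 9 bp from that of Mrpl55, which encodes a mitochondrial ribosomal protein (chr11:59201851-59202998). Its folds in DFL were 13.4 and 15.1 in wt and 5.53 and 6.23 in 542, in PFL 13.1 and 14.0 against 7.33 and 6.59, and in FB 12.6 and 10.8 against 8.36 and 7.85. Every 542 library thus lay below every wt library, at -0.85 ± 0.07 on the log2 scale (SE; limma adjusted p = 0.00243), and the earlier wt DFL library had 11.2. Leaving out any library kept this call, and it lay outside the 20 kb distance of the stricter rule. Genotype went with the mapping genome and, in part, with depth in this comparison, and their part in it was not tested.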

How the data were processed

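ATAC-seq libraries of DFL, PFL and FB were analysed as deposited peak files, 1 per library. Per the paper's methods the authors trimmed reads with Cutadapt, aligned them with bowtie2, kept alignments of high mapping quality, removed duplicates with Picard, converted pairs with bedtools and called peaks with MACS2 in each library without a control, on mm10 or on the genome of allele 542. The deposited fold is a ratio of tags at the summit plus 1 to the local background plus 1. The same caller gave the deposited −log10 p-value and its adjusted form, the −log10 q-value, and the score column, as deposited, repeats the −log10 q-value times a constant without decimals and was not used. No value is normalized between libraries.

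Summits with the same borders were joined, and positions of 542 beyond the insertion were shifted back. Tags were recovered as whole numbers that gave both fold and p-value within 0.001 (94.6% to 98.8% of regions in the 12 libraries), and depth was estimated from the most frequent background. Precision is limited by these tag numbers, and intervals for counting error were not given because duplicates carry no molecular identifiers. The 50000 strongest regions per library, by q-value and then fold, were joined with an overlap of at least 1 bp, and a consensus region took the highest fold that overlapped it. Strength was tested with limma 3.58.1 in R 4.3.3 with 1 mean per group over 12 libraries centred on their median, and the procedure was tested on simulated data. Gene models were GENCODE M21 on GRCm38. Other steps ran in Python 3.11.15 (matplotlib 3.10.9, scipy 1.17.1, pandas 2.3.3, numpy 2.4.6).

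Named were the 4 strongest regions per class, the 3 largest called differences per contrast and direction, the 3 genes per pair of tissues with the largest difference of mean region number, and genes with a promoter region in all libraries of 1 tissue and none of another. Other genes whose counts or promoters are given were picked after their values were seen. The members and lists were chosen with earlier results of these data known. Replicate numbers were not treated as pairs. Deviations of same-numbered libraries from their group means correlated at -0.03 to 0.02 over 15 pairs of groups. Noise of single libraries can hide a shared origin, so this cannot show whether same-numbered libraries shared embryos or a preparation. The earlier wt DFL library entered no test.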

Additional observations from a re-analysis of the deposited data

Results flagged for a closer look

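The earlier wt DFL library lies outside the comparisons. Among its 50000 strongest regions 346 lay near Wnt genes, above the 307 to 327 of the 4 DFL libraries of the groups. It was also the deepest library, with an estimated 78.0 M tags and 131691 regions. Whether depth or preparation bears on this count was not tested.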

How the results depend on the processing

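Of 278 recomputed counts, 247 stayed within 1.5 times the reported one. With all deposited regions limb-only regions numbered 72 of 1301 (beside 3.80% of all regions). Genes with more regions in every PFL than DFL library then numbered 1, and in every FB than PFL library 7. With the 20000 strongest regions 239 lay near Wnt genes. Of these 2 were DFL-only, 3 PFL-only, 12 FB-only and 12 limb-only, beside 1.79%, 1.29%, 7.40% and 3.71% of all regions. Within 20 kb, 10 of 430 were DFL-only (beside 1.92% of all regions). Of 119 tested there, 11 were stronger in FB (9.24%, beside 14.9%) and 0 stronger in wt (beside 0.0991%). With tags at the summit scaled to depth, 154 regions were tested. Of these 9 were stronger in DFL (5.84%, beside 8.54% of all regions), 10 in PFL (6.49%, beside 7.15%) and 37 in FB (24%, beside 27%). By genotype, 2 were stronger in 542 (1.3%, beside 1.61%) and 3 in wt (1.95%, beside 0.932%). With uncalled regions set to the lowest fold of the library, all 633 were tested. The counts were 83 for DFL (13.1%, beside 13.5% of all regions), 71 for PFL (11.2%, beside 13.3%), 148 for FB (23.4%, beside 28%) and 273 for limb (43.1%, beside 42.6%). By genotype they were 8 for 542 (1.26%, beside 1.31%) and 6 for wt (0.948%, beside 1.68%). The interaction had 12 (1.9%, beside 2.98%). Without centring, 2 were stronger in PFL (1.13%, beside 1.81% of all regions), 62 in FB (35%, beside 34.5%) and 24 in limb (13.6%, beside 13.1%). With a mean fold of at least 5, 2 of 152 were stronger in PFL (1.32%, beside 2.71%). The cause was not tested, apart from the number of regions, which differs by construction with other lists, distances and fold limits.

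Leaving out each library in turn gave 11 to 18 PFL-only regions (18 without 542 PFL replicate 2), 4 to 7 genes with more regions in every PFL than DFL library (7 without wt PFL replicate 1), 2 to 4 regions stronger in DFL (2 without wt PFL replicate 2) and 1 to 6 stronger in PFL (1 without wt DFL replicate 2, 2 without wt PFL replicate 1). Omitting libraries for the gene and promoter counts was added after seeing the data. With the replicate number as a block, 4 regions were stronger in DFL, 4 in PFL, 19 in FB, 42 in limb, 0 in 542 and 1 in wt, so the block moved no count by over 1.5 times. No named difference reversed, and in 19 alternatives the Axin2 region or a Tcf7l1 region lost its call, among them no centring (limma adjusted p = 0.0512) and tags scaled to depth (0.28) for the Tcf7l1 region with the larger difference. A weak region can go uncalled in a shallower library, so a missing call does not show closed chromatin.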
